A study of Mus musculus with 13 samples.

Results

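The proteasome subunit genes of the mouse are the genes with symbols that begin Psma, Psmb, Psmc, Psmd, Psme or Psmg followed by a digit. Of 37636 listed genes, 52 carry such a symbol. Of these, 3 are pseudogenes and 5 are protein-coding genes with a mean below 1 FPKM over all libraries, which leaves 44 genes among the 13905 that reach this level. FPKM counts fragments per kilobase of gene, scaled to the mapped fragments of the library, so levels of different genes can be set side by side on it.

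Brain RNA of male Balb/c mice aged 6 to 8 weeks was sequenced in 13 libraries. The group 6-OHG (4 libraries) had 24 h at 8000 m with 6-OHG, a compound known here by its code alone, with no dose stated. The group Mod (5 libraries) had 24 h at 8000 m without it, and the group Con (4 libraries) stayed under normal conditions. No genetic alteration is given for any group, the brain region is not named, and no group had the compound without the altitude. The labels do not say that the libraries of a group come from separate mice, so each p-value may reflect technical spread alone.

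The proteasome is the large protease that degrades proteins tagged with ubiquitin, and in neurons it clears damaged proteins and turns over synaptic ones. Its 20S core is a barrel with outer rings of alpha subunits (Psma genes), which gate the entrance, and inner rings of beta subunits (Psmb genes), which carry the active sites. The 19S particle caps the core, and its ATPases (Psmc genes) unfold substrates while its non-ATPase subunits (Psmd genes) bind and trim ubiquitin chains. Psme genes encode other activators that dock on the same ends of the core, and Psmg genes encode chaperones that help to build it.

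FPKM columns summed to between 268208 and 312908, and the mitochondrially encoded genes took 20.6% to 28.7% of each sum. The 4 columns of 6-OHG summed to 272992 to 278335, below all 5 columns of Mod (282978 to 312908), while those of Con spanned 268208 to 299371. Con replicate 4 and 6-OHG replicate 2 correlated least with their groups, at r = 0.957 to 0.975 across genes, against 0.973 to 0.989 for the other pairs within groups. The brain label was met by neuron markers, which summed to 741 to 907 FPKM over all libraries, and choroid plexus and ependyma markers ranged from 4.28 FPKM in 6-OHG replicate 2 to 695 FPKM in Con replicate 2. Read totals do not come with FPKM values, so no counting error can be given. In bulk tissue, fewer cells of a type and less RNA per cell cannot be told apart.

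All 44 genes were measured in every library, and their levels spanned more than an order of magnitude. The ATPase gene Psmc5 stood highest, at a mean of 81.0 FPKM over all libraries, followed by Psmc1 (59.8 FPKM) and the alpha ring gene Psma6 (55.6 FPKM). The lowest means were those of the core chaperone Psmg3 (2.25 FPKM), the cap chaperone Psmd9 (2.31 FPKM) and the activator Psme2 (3.92 FPKM). The 7 constitutive beta ring genes were the closest to each other, with 2.13-fold between Psmb3 (18.1 FPKM) and Psmb4 (38.6 FPKM). Within the alpha ring the range was 3.92-fold, among the 6 ATPases 5.24-fold, and among the 11 non-ATPase cap genes 6.57-fold, where Psmd11 was lowest at 6.67 FPKM and Psmd2, the large scaffold of the base, highest at 43.8 FPKM. The 4 activators spanned 7.48-fold, up to 29.3 FPKM for the nuclear activator Psme3.

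The inducible beta subunits form the immunoproteasome, which replaces the standard active-site subunits in immune cells and after interferon signals. Psmb8 was listed at 0.176 to 0.528 FPKM and Psmb9 at 0.0817 to 0.380 FPKM over all libraries, below the level needed for a test. Their sum reached 0.298 to 0.738 FPKM in 6-OHG, 0.267 to 0.708 FPKM in Mod and 0.503 to 0.709 FPKM in Con, with overlap of all groups. Psmb10, which carries the third inducible active site, was higher and was tested, with 8.24, 11.5, 9.04 and 8.54 FPKM in 6-OHG, 12.4, 12.9, 10.2, 9.85 and 11.9 FPKM in Mod and 10.4, 11.6, 8.29 and 10.6 FPKM in Con. All 3 groups of Psmb10 overlapped, and it was called in no comparison (adjusted p = 0.116 to 0.470). Marker genes of T cells and other leukocytes summed to at most 0.243 FPKM in any library, with 4 of the 5 listed genes at 0 in at least 1 library. The 3 other genes below the level were Psma8, Psmb11 and Psmc3ip, of which the last matches by symbol alone and is not known as a proteasome subunit.

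**Figure D1:**
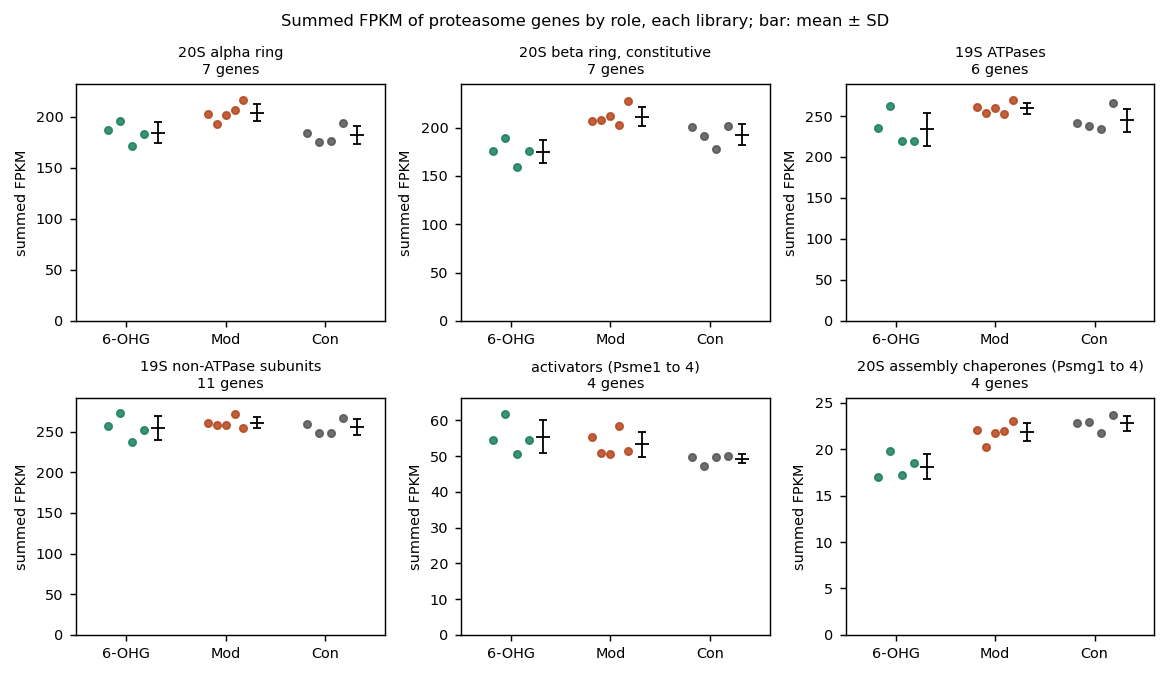
Summed FPKM of the proteasome genes of each role (vertical axis, from 0) in every library of 6-OHG, Mod and Con, with the mean and SD beside the points. The beta ring and the Psmg chaperones of 6-OHG lie below every Mod library, whereas the non-ATPase cap genes overlap in all groups. The sums are not rescaled for the unequal FPKM totals of the libraries, which are lower in 6-OHG than in Mod. As a share of its total, Mod replicate 2 is below 6-OHG replicate 2 for the beta ring and for the Psmg chaperones.

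Promoters of 37 of the 44 genes were found in RefSeq on GRCm38.p6, as 40 windows of 250 bases before to 50 bases after a start of transcription. No window was found for Psmb1, Psmb2, Psmb7, Psmc3, Psmd3, Psmd7 and Psmg2, so these genes were not searched. Matches to 4 motifs were searched on both strands, and matches of different motifs overlapped in 0 cases. The ETS motif CCGGAAG was present in 37.5% of the proteasome windows, against 8.86% of all 32851 windows and 16.4% of the windows of genes tested here. The nuclear respiratory factor 1 motif, GCGCA and GCGC with any 1 base between them, was present in 17.5%, against 4.60% of all windows and 9.61% of those of tested genes. The antioxidant response element TGACNNNGC was present in 15.0%, against 12.4% and 14.1%, and the CCAAT box CCAAT in 30.0%, against 37.4% and 37.4%. Each match is a description of these letters and not a site of binding. Shown here are the 150 bases before the start for the 6 genes with the smallest adjusted p among those with a whole match to one of the first 3 motifs, as the promoters of genes with called changes, with the matched letters in capitals.
Psme4: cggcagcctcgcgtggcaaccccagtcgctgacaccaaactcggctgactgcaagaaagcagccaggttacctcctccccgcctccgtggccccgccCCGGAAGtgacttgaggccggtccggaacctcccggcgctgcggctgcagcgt
Psmb5: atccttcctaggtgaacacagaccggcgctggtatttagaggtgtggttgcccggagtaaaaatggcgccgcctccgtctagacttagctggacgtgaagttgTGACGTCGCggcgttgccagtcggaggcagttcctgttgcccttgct
Psmb6: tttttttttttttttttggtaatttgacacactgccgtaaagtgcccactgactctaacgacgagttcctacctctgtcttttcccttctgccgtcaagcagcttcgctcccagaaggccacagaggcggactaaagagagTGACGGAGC
Psma4: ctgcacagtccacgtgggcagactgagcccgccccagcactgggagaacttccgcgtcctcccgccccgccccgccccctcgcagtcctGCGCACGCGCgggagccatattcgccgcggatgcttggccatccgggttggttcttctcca
Psmd6: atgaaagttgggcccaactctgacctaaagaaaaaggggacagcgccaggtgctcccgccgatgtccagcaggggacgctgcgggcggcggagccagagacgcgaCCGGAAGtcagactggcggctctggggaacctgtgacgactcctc
Psmd9: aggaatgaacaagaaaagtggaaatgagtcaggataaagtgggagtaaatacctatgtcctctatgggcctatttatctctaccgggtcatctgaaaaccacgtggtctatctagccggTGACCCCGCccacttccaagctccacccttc
The capitals mark ETS motifs in Psme4, which encodes the activator PA200, and in the cap gene Psmd6. They mark antioxidant response elements in Psmb5, which encodes the chymotrypsin-like active site, in Psmb6, which encodes the caspase-like one, and in Psmd9. In the alpha ring gene Psma4 they mark the nuclear respiratory factor 1 motif. Psme4 also has an antioxidant response element, TGACGCTGC on the other strand, which crosses the start and is therefore not in capitals. The stretches lie at chr11:30771625-30771774 (plus strand) for Psme4, chr14:54617996-54618145 (minus strand) for Psmb5, chr11:70525207-70525356 (plus strand) for Psmb6, chr9:54950709-54950858 (plus strand) for Psma4, chr14:14120946-14121095 (minus strand) for Psmd6 and chr5:123228040-123228189 (plus strand) for Psmd9, all on GRCm38.p6 and written 5′ to 3′ on the strand of the gene.

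Exposure to 8000 m for 24 h was tested by Mod against Con. Values were compared as log2(FPKM + 1), a scale that understates the change of low genes, with limma's moderated test over all 13905 genes. A gene was called at a Benjamini-Hochberg adjusted p under 0.05. Of the 44 proteasome genes 7 rose in Mod (15.9%), against 14.0% of all genes tested, and 1 fell (2.27%), against 9.81%. In either direction 23.8% of all genes were called. The share that rose is thus near that of all genes. The median change of the 44 genes was 0.11, against 0.01 for all genes tested, and 32 of the 44 were positive.

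In the alpha ring 2 of 7 genes rose in Mod. Psma4 had 30.9, 29.4, 29.8, 34.9 and 35.7 FPKM in Mod, against 26.5, 24.6, 27.4 and 25.6 FPKM in Con, a log2 change of 0.29 (SE 0.07, limma adjusted p = 0.0130). Psma7 had 25.5, 23.8, 25.8, 23.9 and 24.6 FPKM in Mod, against 21.5, 21.6, 19.6 and 21.8 FPKM in Con, a log2 change of 0.22 (SE 0.05, limma adjusted p = 0.0109). For both genes all 5 Mod libraries lay above all 4 Con libraries. The summed alpha ring was 193 to 216 FPKM in Mod and 175 to 194 FPKM in Con, so that the lowest Mod library lay just below the highest Con library, replicate 4. Psma6, the most abundant alpha gene, had a log2 change of 0.18 (95% interval 0.02 to 0.35, limma adjusted p = 0.0974) and was not called.

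In the constitutive beta ring 1 of 7 genes rose in Mod. This was Psmb4, a structural subunit without an active site, at 44.3, 41.1, 42.2, 41.0 and 47.0 FPKM in Mod, against 36.0, 38.2, 31.0 and 39.0 FPKM in Con. The groups did not overlap, and the log2 change was 0.26 (SE 0.07, limma adjusted p = 0.0237). The active-site genes were not called. Their log2 changes were -0.04 for Psmb5 (95% interval -0.22 to 0.13), 0.15 for Psmb6 (-0.03 to 0.32) and 0.13 for Psmb7 (-0.01 to 0.27), which encodes the trypsin-like site.

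In the cap, 0 of 6 ATPase genes were called in Mod against Con, although all 6 changes were positive (0.04 to 0.12). Of the 11 non-ATPase genes, Psmd6 rose by 0.23 and Psmd13 by 0.18, while Psmd11 fell by 0.22 on the log2 scale (limma adjusted p = 0.0158, 0.0391 and 0.0297). All 3 encode subunits of the lid, the part of the cap that holds the deubiquitinase. Psmd11 had 6.22, 6.40, 6.40, 6.09 and 6.16 FPKM in Mod, against 7.62, 7.18, 7.29 and 7.60 FPKM in Con, with no overlap. The summed non-ATPase genes overlapped, at 255 to 272 FPKM in Mod and 248 to 267 FPKM in Con. Psmd13 shares its locus with the pseudogene Gm15542 (8.96 FPKM) and with Sirt3 (6.63 FPKM), and how shared fragments were assigned is not given in the sources used here.

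Among chaperones and activators, Psmd9 and Psme1 rose in Mod. Psmd9, a chaperone of the cap's ATPases, had 2.63, 2.39, 2.39, 2.55 and 2.22 FPKM in Mod, against 1.87, 2.11, 1.97 and 1.81 FPKM in Con (log2 change 0.23, SE 0.07, limma adjusted p = 0.0343). Psme1 and Psme2 encode the alpha and beta chains of the activator PA28, which is induced by interferon. Psme1 had 13.3, 10.8, 11.2, 12.7 and 12.5 FPKM in Mod, against 9.72, 7.03, 9.27 and 10.7 FPKM in Con (log2 change 0.37, SE 0.12, limma adjusted p = 0.0406). Neither gene's groups overlapped, but the lowest Psme1 value of Mod was close to the highest of Con. Psme2 had a log2 change of 0.33 (95% interval -0.01 to 0.68) and was not called. Psme1 overlaps Emc9 (5.74 FPKM) on the opposite strand.

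Markers of cell types were read in the same comparison, where 14.0% of all genes tested were higher and 9.81% lower. Each list is short, so 1 call more or less moves its share widely. Of 6 endothelial markers 4 were higher and 1 lower in Mod, and their sum was 51.8 to 63.6 FPKM in Mod, against 37.0 to 47.8 FPKM in Con. Of 7 microglial markers 1 was lower, and their sum was 75.6 to 89.2 FPKM in Mod, against 93.3 to 106 FPKM in Con. Of 6 astrocyte markers 2 were lower, as were 1 of 8 neuron and 1 of 6 oligodendrocyte markers. Choroid plexus and ependyma markers summed to 48.1 to 253 FPKM in Mod, against 281 to 695 FPKM in Con, with 0 of 3 tested called, and 0 of 5 erythroid markers were called. Of the 8 interferon response genes 3 were tested and 0 called, and the sum of the list was 5.16 to 7.77 FPKM in Mod, against 7.01 to 8.51 FPKM in Con. Their part in the changes of the proteasome genes was not tested.

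The 7 higher calls were lost with libraries rescaled to equal FPKM sums, a step that moved the median of all genes to -0.05. On that scale 0 proteasome genes were higher, against 7.87% of all genes, and Psmd11 was the 1 lower (log2 change -0.28, limma adjusted p = 0.0206). The 3 other scalings gave 4 to 7 higher and 1 lower, against 11.8% to 13% and 11.2% to 11.9% of all genes. Psma4 and Psma7 kept their calls whichever library was left out. Psmb4 lost its call without Con replicate 1 or 3 or Mod replicate 1 or 5, and Psmd6 without Con replicate 2. Psmd9 lost its call without Con replicate 1, 3 or 4 or Mod replicate 1, 2, 3 or 4, and Psmd11 without Con replicate 1, 3 or 4 or Mod replicate 1, 4 or 5. Psmd13 lost its call without Con or Mod replicate 1, 2 or 4 or 6-OHG replicate 4, and Psme1 without Con replicate 1, 2 or 3 or Mod replicate 1, 3, 4 or 5. With the trend of each library on exon length and GC content removed, both genes also lost their calls. Their log2 changes were then 0.14 for Psmd13 and 0.33 for Psme1 (limma adjusted p = 0.127 and 0.0649). Without Con replicate 4 and 6-OHG replicate 2 together, 12 genes were higher and 1 lower, or 27.3% and 2.27% against 16.5% and 13.0% of all genes.

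**Figure D2:**
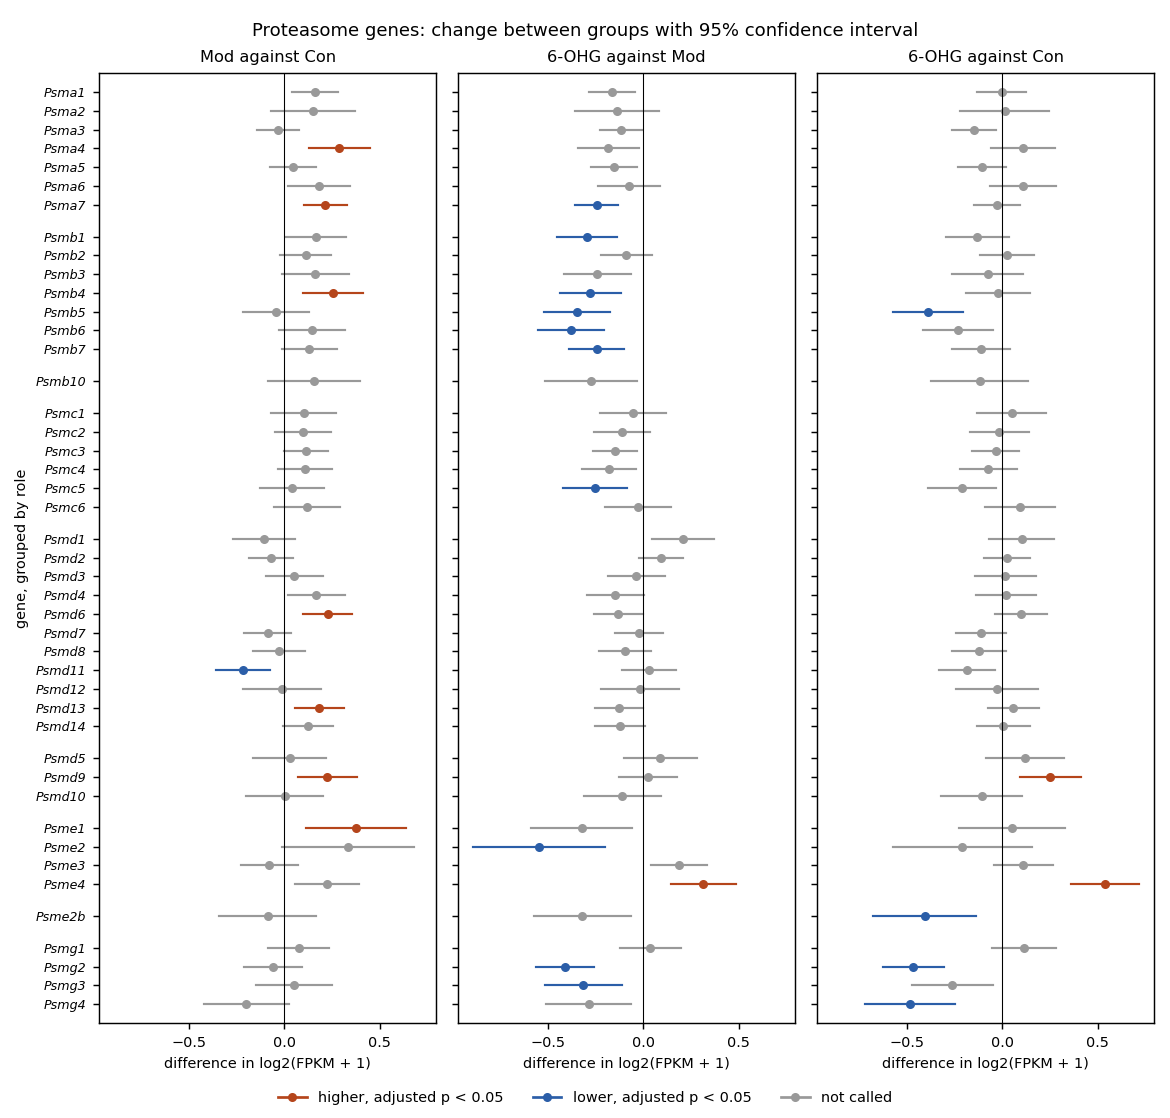
Difference in log2(FPKM + 1) of each of the 44 proteasome genes (rows, grouped by role) in the 3 comparisons, with 95% confidence intervals and called genes in colour. In 6-OHG against Mod 36 of the 44 points lie below 0, with 5 of the 7 beta ring genes called lower.

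The effect of 6-OHG at altitude was tested by 6-OHG against Mod, which shares the 5 Mod libraries with the comparison above. In 6-OHG 10 of 44 proteasome genes fell (22.7%), against 8.35% of all genes tested, and 1 rose (2.27%), against 6.98%, with 15.3% of all genes called in either direction. For 12 genes (27.3%) every 6-OHG library lay below every Mod library, against 8.34% of all genes, and for 0 genes did every 6-OHG library lie above. The median change was -0.13, against -0.02 for all genes tested, and 36 of the 44 genes were negative. By role, 5 of 7 constitutive beta genes fell, 1 of 7 alpha genes, 1 of 6 ATPases, 0 of 11 non-ATPase cap genes and 2 of 4 Psmg chaperones. The role medians were -0.28 for the beta ring, -0.15 for the alpha ring, -0.13 for the ATPases, -0.04 for the non-ATPase genes and -0.30 for the Psmg genes. Whether the roles differ from each other was not tested.

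All 3 active-site genes fell. Psmb6 had 22.0, 25.6, 21.9 and 21.3 FPKM in 6-OHG, against 30.3, 28.5, 32.3, 26.6 and 31.2 FPKM in Mod (log2 change -0.38, SE 0.08, limma adjusted p = 0.00842). Psmb5 had 31.5, 28.4, 24.0 and 28.9 FPKM in 6-OHG, against 31.8, 36.4, 34.3, 37.3 and 40.7 FPKM in Mod (log2 change -0.35, SE 0.08, limma adjusted p = 0.0129). Psmb7 had 21.7, 24.4, 22.5 and 23.6 FPKM in 6-OHG, against 28.7, 27.1, 26.4, 25.0 and 30.5 FPKM in Mod (log2 change -0.24, SE 0.07, limma adjusted p = 0.0272). No 6-OHG library reached the lowest Mod library for any of the 3, although for Psmb5 the nearest values were 31.5 and 31.8 FPKM. Their summed level was 75.3, 78.3, 68.4 and 73.7 FPKM in 6-OHG, 90.8, 92.0, 92.9, 89.0 and 102 FPKM in Mod and 92.4, 86.0, 83.4 and 94.3 FPKM in Con. The 4 sums of 6-OHG thus lay below all 9 others.

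Of the structural beta genes, Psmb1 had 16.6, 18.8, 15.6 and 16.6 FPKM in 6-OHG, against 20.003, 20.5, 22.2, 19.6 and 22.8 FPKM in Mod (log2 change -0.30, SE 0.07, limma adjusted p = 0.0164). Psmb4 had 34.4, 39.0, 33.2 and 35.1 FPKM in 6-OHG, against 44.3, 41.1, 42.2, 41.0 and 47.0 FPKM in Mod (log2 change -0.28, SE 0.07, limma adjusted p = 0.0239). Neither gene's groups overlapped. Psmb3 was not called, although its groups did not overlap either (log2 change -0.24, limma adjusted p = 0.0631), and Psmb2 overlapped. Psmb7 overlaps Nek6 (3.60 FPKM) on the opposite strand.

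In the alpha ring Psma7 fell, at 20.01, 22.6, 20.1 and 20.2 FPKM in 6-OHG, against 25.5, 23.8, 25.8, 23.9 and 24.6 FPKM in Mod (log2 change -0.25, SE 0.05, limma adjusted p = 0.00917). The other 6 alpha genes had changes between -0.18 and -0.08 and were not called. Among the ATPases Psmc5, the most abundant of all 44, fell to 72.7, 82.0, 69.5 and 64.2 FPKM in 6-OHG, against 87.0, 81.0, 90.1, 80.5 and 91.3 FPKM in Mod (log2 change -0.25, SE 0.08, limma adjusted p = 0.0430). Its highest 6-OHG value, that of replicate 2, lay above the lowest 2 of Mod. The core genes of both rings summed to 331 to 385 FPKM in 6-OHG, 401 to 444 FPKM in Mod and 354 to 395 FPKM in Con. The cap's ATPase and non-ATPase genes summed to 456 to 535 FPKM in 6-OHG, 512 to 525 FPKM in Mod and 482 to 532 FPKM in Con. As unscaled FPKM, the core sums of 6-OHG and Mod did not overlap, and the cap sums did. The columns themselves differed in sum. Mod replicate 2 held 401 FPKM of core genes in a column of 312908, and 6-OHG replicate 2 held 385 FPKM in 272992. As a share of its column, the core of Mod replicate 2 was thus the lower, so on that scale the groups overlapped.

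Of the core chaperones, Psmg1 and Psmg2 form one pair that helps to assemble the alpha ring, and Psmg3 and Psmg4 form another. Psmg2 had 4.48, 5.03, 4.18 and 4.53 FPKM in 6-OHG, against 7.29, 5.42, 6.33, 6.51 and 6.37 FPKM in Mod, with no overlap (log2 change -0.41, SE 0.07, limma adjusted p = 0.00317). Psmg3 had 1.90, 1.82, 1.76 and 1.73 FPKM in 6-OHG, against 2.31, 2.32, 2.79, 2.32 and 2.71 FPKM in Mod, again with no overlap (log2 change -0.31, SE 0.09, limma adjusted p = 0.0374). Psmg4 was not called (log2 change -0.29, 95% interval -0.51 to -0.06, limma adjusted p = 0.0778), nor was Psmg1 (0.04, -0.12 to 0.20). The 4 Psmg genes summed to 17.0, 19.9, 17.2 and 18.5 FPKM in 6-OHG, below all 5 sums of Mod (20.3 to 23.0 FPKM) and all 4 of Con (21.8 to 23.7 FPKM). These sums were not rescaled for the lower FPKM totals of 6-OHG than of Mod. Mod replicate 2 held 20.3 FPKM of Psmg genes in a column of 312908, and 6-OHG replicate 2 held 19.9 FPKM in 272992. As a share of its column Mod replicate 2 was thus the lower, so on that scale 6-OHG and Mod overlapped.

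The activators moved in both directions. Psme4 had 12.4, 11.9, 10.5 and 9.91 FPKM in 6-OHG, against 8.24, 8.54, 9.10, 9.92 and 8.16 FPKM in Mod (log2 change 0.31, SE 0.08, limma adjusted p = 0.0175). The groups met at 9.91 and 9.92 FPKM. Psme2 fell, at 1.81, 4.23, 3.31 and 2.91 FPKM in 6-OHG, against 4.34, 4.41, 3.75, 5.61 and 6.15 FPKM in Mod (log2 change -0.54, SE 0.16, limma adjusted p = 0.0363). Its 6-OHG replicate 2 lay above the lowest Mod library. Its partner Psme1 was not called (log2 change -0.32, 95% interval -0.59 to -0.06, limma adjusted p = 0.0922), nor was Psme3 (0.19, 0.04 to 0.34, limma adjusted p = 0.0809). Psme2b is a near-identical copy of Psme2, so the division of fragments between them is uncertain.

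**Figure D3:**
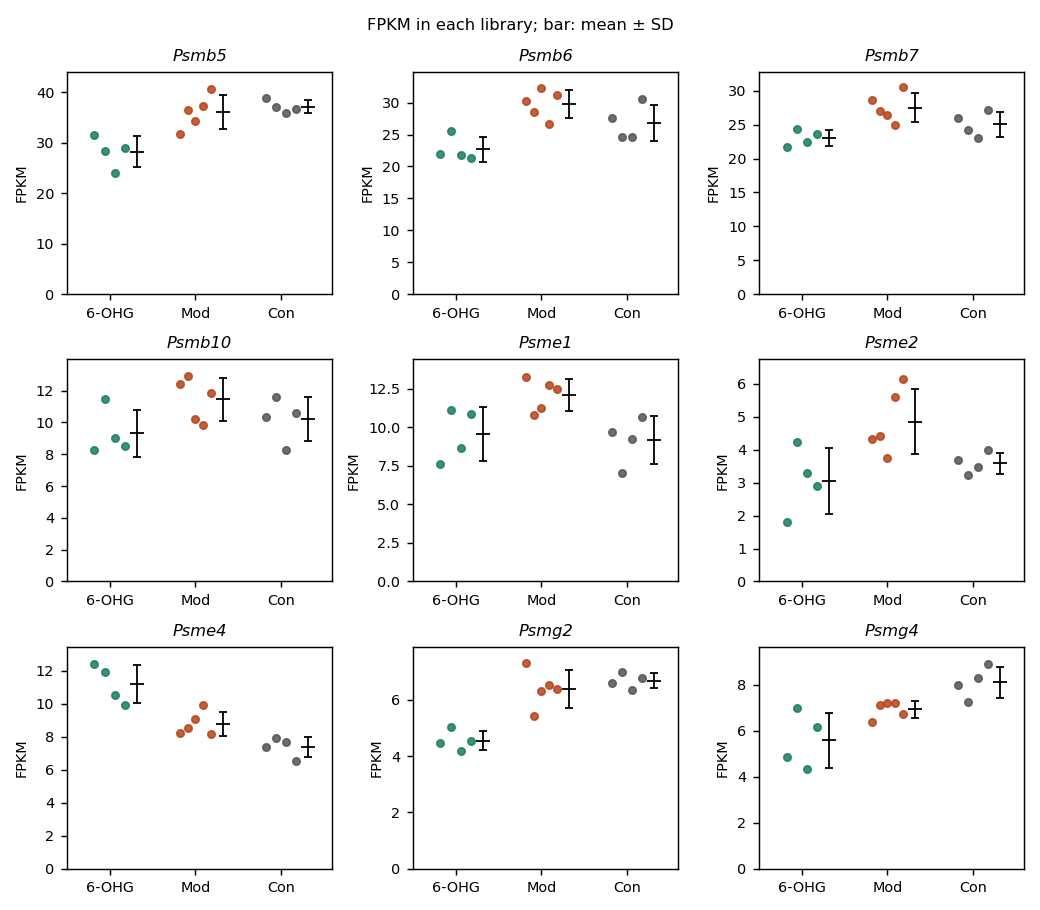
FPKM of 9 proteasome genes (vertical axis, from 0) in each library of 6-OHG, Mod and Con, with mean and SD. For Psmb6, Psmb7 and Psmg2 every 6-OHG point lies below every Mod point, and for Psme4 every 6-OHG point lies above every Con point.

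Markers of cell types were also read in 6-OHG against Mod, where 6.98% of all genes tested were higher and 8.35% lower. Each sum given here overlapped between the 2 groups. Of 6 oligodendrocyte markers 0 were called, all 6 changes were negative, and their sum was 574 to 1051 FPKM in 6-OHG, against 706 to 1706 FPKM in Mod. Of 6 endothelial markers 1 was lower and of 8 neuron markers 1 was higher, and 0 of 6 astrocyte and 0 of 3 tested choroid plexus and ependyma markers were called. Of 5 erythroid markers 1 was lower, with sums of 40.9 to 176 FPKM in 6-OHG and 109 to 520 FPKM in Mod. Of 7 microglial markers 0 were called, with sums of 61.1 to 89.2 FPKM in 6-OHG and 75.6 to 89.2 FPKM in Mod. Of the 3 tested interferon response genes 1 was higher, with sums of 5.67 to 9.17 FPKM in 6-OHG and 5.16 to 7.77 FPKM in Mod for the list of 8. Their part in the changes of the proteasome genes was not tested.

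The FPKM sums of 6-OHG and Mod did not overlap, and with libraries rescaled to equal sums the median of all genes became 0.06. On that scale 2 proteasome genes were lower, Psmb6 and Psmg2 (4.55%, against 2.86% of all genes), and 2 were higher, Psmd1 and Psme4 (4.55%, against 9.96%). Without 6-OHG replicate 2 and Con replicate 4, 17 genes were lower (38.6%, against 12.1%) and 1 higher (2.27%, against 8.87%). Psma7, Psmb1, Psmb5, Psmb6 and Psmg2 kept their calls whichever library was left out, though of these Psma7, Psmb1 and Psmb5 lost theirs at equal sums. Psmb4 and Psmb7 lost theirs without Mod replicate 1 or 5 or 6-OHG replicate 1, 3 or 4, and Psme4 without 6-OHG replicate 1. Psmc5 lost its call without Con replicate 1 or 2, Mod replicate 1, 2, 3 or 5 or 6-OHG replicate 1, 3 or 4. Psme2 lost its call without Mod replicate 1, 2, 4 or 5 or 6-OHG replicate 1, 3 or 4, and Psmg3 without Mod replicate 1, 2, 3 or 5 or any 6-OHG library.

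Change and gene length went together among the proteasome genes. Their summed exon length had a median of 2724.5 bases, against 4102.5 bases for all genes tested, and ran from 555 bases to 8382 bases for Psme4. Over the 44 genes, which share the libraries and are not independent, the change in 6-OHG against Mod had r = 0.57 and rho = 0.51 with log2 length. In 6-OHG against Con the values were r = 0.60 and rho = 0.40, and in Mod against Con r = 0.10 and rho = 0.07. With the trend of each library on exon length and GC content removed, 4 genes were lower in 6-OHG than in Mod, namely Psmb1, Psmb6, Psmb7 and Psmg2 (9.09%, against 3.48% of all genes). The 1 higher gene was then Psme3 (2.27%, against 3.53%). The change of Psmb5 became -0.11 and lost its call (limma adjusted p = 0.482), and that of Psme4 became 0.20 (limma adjusted p = 0.144). Psma7 at -0.11, Psmb4 at -0.14 and Psmc5 at -0.09 also lost their calls (limma adjusted p = 0.102, 0.194 and 0.458), as did Psme2 at -0.39 and Psmg3 at -0.24 (0.157 and 0.102).

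**Figure D4:**
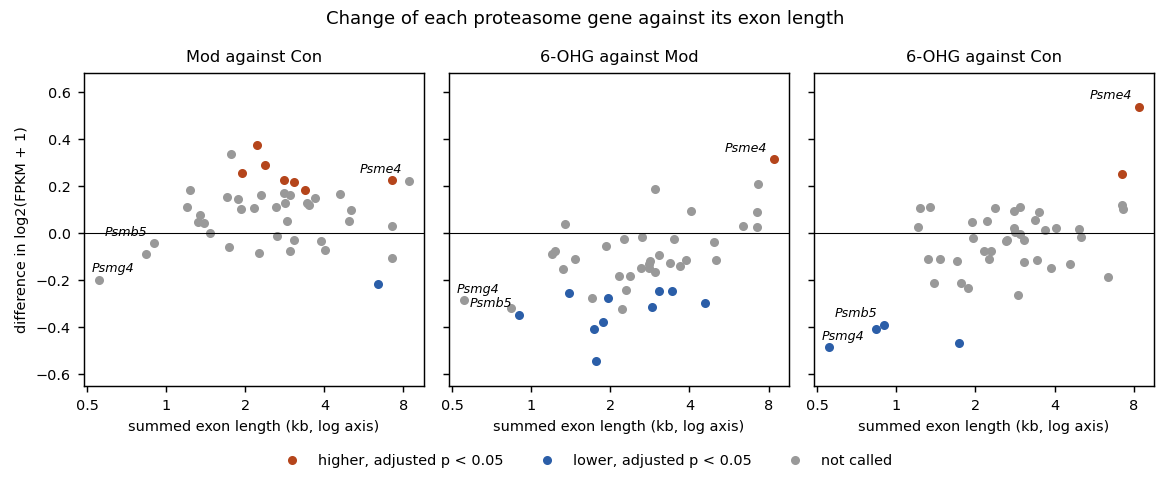
Difference in log2(FPKM + 1) of each proteasome gene (vertical axis) against its summed exon length in kilobases (log axis) in the 3 comparisons, with called genes in colour. Psmb5 and Psmg4 lie at the short end and Psme4 at the long end.

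Mice at altitude with 6-OHG were also compared with those under normal conditions. In 6-OHG against Con, 2 of 44 genes rose (4.55%), against 16.3% of all genes tested, and 4 fell (9.09%), against 14.4%, with 30.7% of all genes called in either direction. Both shares lie below those of all genes. The median change was -0.03, against 0.00 for all genes tested. The role sums of the core overlapped: the alpha ring was at 171 to 196 FPKM in 6-OHG and 175 to 194 FPKM in Con, and the beta ring at 160 to 189 FPKM in 6-OHG and 177 to 202 FPKM in Con.

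Psme4 was the member with the smallest adjusted p in any comparison. Its 12.4, 11.9, 10.5 and 9.91 FPKM in 6-OHG stood against 7.37, 7.90, 7.70 and 6.56 FPKM in Con, a 1.52-fold ratio of means and a log2 change of 0.54 (SE 0.08, limma adjusted p = 0.000519). The groups did not overlap, and the Mod libraries spanned 8.16 to 9.92 FPKM. In Mod against Con the Psme4 groups did not overlap either, but the change of 0.22 was not called (95% interval 0.05 to 0.39, limma adjusted p = 0.0540). The call in 6-OHG against Con held in all 27 alternative settings, with the change at 0.45 after removal of the length and GC trend (limma adjusted p = 0.00160).

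Psmg2 and Psmg4 fell in 6-OHG against Con, also in all 27 alternative settings. Psmg2 had 4.48, 5.03, 4.18 and 4.53 FPKM in 6-OHG, against 6.59, 6.98, 6.35 and 6.77 FPKM in Con (log2 change -0.47, SE 0.07, limma adjusted p = 0.000658). Psmg4 had 4.85, 6.97, 4.32 and 6.16 FPKM in 6-OHG, against 7.97, 7.26, 8.30 and 8.88 FPKM in Con (log2 change -0.48, SE 0.11, limma adjusted p = 0.00523). No 6-OHG value of either gene reached the lowest Con value. Psmg4 is the shortest of the 44 genes, and its change became -0.35 with the trend removed (limma adjusted p = 0.0272).

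Psmb5 was at 31.5, 28.4, 24.0 and 28.9 FPKM in 6-OHG, against 38.8, 37.1, 35.8 and 36.7 FPKM in Con (log2 change -0.39, SE 0.08, limma adjusted p = 0.00449). The groups did not overlap, and the call held whichever library was left out, but with the length and GC trend removed the change was -0.23 and not called (limma adjusted p = 0.0787). The other active-site genes were not called: Psmb6 had a change of -0.23 (95% interval -0.42 to -0.05, limma adjusted p = 0.0529) and Psmb7 of -0.11 (-0.27 to 0.04). Psmd9 rose by 0.25 (limma adjusted p = 0.0225), and lost its call without Con replicate 1 or 4 or 6-OHG replicate 2. Psme2b fell by 0.41 (limma adjusted p = 0.0251), and lost its call without Con replicate 2 or 6-OHG replicate 2 or 3. It also lost its call with the length and GC trend removed (log2 change -0.34, limma adjusted p = 0.0574). Beside these values, 5 of 7 microglial markers were lower in 6-OHG, with sums of 61.1 to 89.2 FPKM in 6-OHG and 93.3 to 106 FPKM in Con. Of 6 endothelial markers 4 were higher and 1 lower, with sums of 47.1 to 66.4 FPKM in 6-OHG and 37.0 to 47.8 FPKM in Con. All 6 oligodendrocyte markers had negative changes and 2 were lower, with sums of 574 to 1051 FPKM in 6-OHG and 1039 to 1420 FPKM in Con. Also lower were 2 of 6 astrocyte markers, 1 of 8 neuron markers, 1 of 3 tested choroid plexus and ependyma markers and 1 of 5 erythroid markers, of which all 5 changes were negative. Among all genes tested, 16.3% were higher and 14.4% lower in this comparison. The part of these cell types was not tested.

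Of 10 other genes of the proteasome or linked to it, whose symbols fall outside the rule, 9 were tested. Not all of them encode proteasome subunits, and the counts include Ubxn1, which does not. Of these, 2 rose and 0 fell in Mod against Con, where 14.0% of all genes rose and 9.81% fell. In 6-OHG against Mod 1 rose and 4 fell, where 6.98% and 8.35% of all genes did. When 6-OHG was set against Con 2 rose and 2 fell, where 16.3% and 14.4% of all genes did. With only 9 genes, 1 call more or less moves such a share widely. Sem1, the smallest lid subunit, had 4.58, 5.19, 4.97 and 4.60 FPKM in 6-OHG, 6.54, 6.66, 7.31, 7.47 and 7.15 FPKM in Mod and 7.44, 7.21, 6.72 and 6.77 FPKM in Con. It fell by 0.46 in 6-OHG against Mod and against Con (limma adjusted p = 0.00102 and 0.000179), with no overlap in either. Pomp, the maturation factor of the core, averaged 9.78 ± 0.659 FPKM in 6-OHG (SD, n = 4), 11.5 ± 0.610 FPKM in Mod (n = 5) and 11.6 ± 0.718 FPKM in Con (n = 4). Its change was -0.22 in 6-OHG against Mod and -0.23 in 6-OHG against Con (limma adjusted p = 0.0257 and 0.0157).

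Adrm1, a ubiquitin receptor of the cap, fell by 0.21 and Ubxn1, a ubiquitin-binding protein, by 0.27 in 6-OHG against Mod (limma adjusted p = 0.0278 and 0.0122), and Ubxn1 rose by 0.29 in Mod against Con (adjusted p = 0.00489). Ecpas, an adaptor that holds cap and core together, rose to 12.4, 12.2, 11.3 and 11.3 FPKM in 6-OHG, against 9.03, 9.34, 9.70, 9.36 and 8.21 FPKM in Mod and 9.47, 8.24, 9.50 and 8.77 FPKM in Con. Its change was 0.34 against Mod and 0.36 against Con (limma adjusted p = 0.00351 and 0.00125). Psmf1, which encodes the proteasome-binding protein PI31, averaged 5.72 ± 0.790 FPKM in 6-OHG, 5.73 ± 0.298 FPKM in Mod and 4.41 ± 0.470 FPKM in Con. It rose by 0.32 in Mod against Con and by 0.31 in 6-OHG against Con (limma adjusted p = 0.0122 and 0.0150).

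Of the regulators, Nfe2l1 encodes the transcription factor that raises proteasome genes when the proteasome is inhibited. It had 47.3, 46.5, 45.2 and 47.6 FPKM in 6-OHG, 47.1, 47.5, 46.7, 44.7 and 46.7 FPKM in Mod and 56.4, 55.3, 55.9 and 58.0 FPKM in Con. Both altitude groups lay below every Con library, with changes of -0.27 in Mod and -0.27 in 6-OHG relative to Con (limma adjusted p = 0.000600 and 0.000707). The change in 6-OHG against Mod was 0.00. Ddi2, the protease that cleaves the Nfe2l1 protein, rose by 0.28 in 6-OHG against Mod (limma adjusted p = 0.0102), and Nfe2l2, which responds to oxidative stress, by 0.38 in 6-OHG against Con (adjusted p = 0.00424).

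Among genes of ubiquitin and its activating enzymes, Ubb, which encodes a chain of ubiquitin repeats, rose by 0.21 in Mod against Con and fell by 0.19 in 6-OHG against Mod (limma adjusted p = 0.0192 and 0.0426). Its mean was 527 ± 31.0 FPKM in 6-OHG, 600 ± 22.9 FPKM in Mod and 519 ± 13.5 FPKM in Con. Uba6, an activating enzyme, fell by 0.57 in Mod against Con, rose by 0.28 in 6-OHG against Mod and fell by 0.30 in 6-OHG against Con (limma adjusted p = 0.000571, 0.0443 and 0.0263). Whether the calls of Ubb and Uba6 hold with libraries rescaled to equal FPKM sums was not tested.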

How the data were processed

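Total RNA was extracted with Trizol and read in pairs on a NovaSeq instrument, per the labels' protocols. The authors deposited 1 table of FPKM values, and each of its 13 columns is 1 library. Per the submitters' processing notes, which give no role or order, the tools were featureCounts 1.5.0-p3, StringTie 2.1.6, HISAT2 2.2.1, cutadapt 1.9, FastQC, edgeR and DESeq2, on GRCm38 or mm10. Which tool made the FPKM values, the annotation release and the strand setting are not given in the sources used here. Of the gene IDs, 37499 matched a symbol and 137 did not. Biotypes, exon lengths, GC content and overlaps came from GENCODE M21.

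Genes whose mean reached 1 FPKM were tested as log2(FPKM + 1) in limma 3.58.1 under R 4.3.3, with 1 mean per group over all 13 libraries, a variance trend and Benjamini-Hochberg adjustment at 0.05. The procedure was also run on simulated data, with noise drawn independently for each gene and library. Some of the real libraries deviated together across genes, so that run cannot show that the calls here are sound. Length and GC trends were removed with splines of 5 degrees of freedom each. Figures used matplotlib 3.10.9 under Python 3.11.15. The proteasome genes and the lists were chosen with earlier results of these data known.

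The text names called proteasome genes, up to 12 per direction and comparison, the active-site pairs, the activators, and the highest and lowest gene of each role. Of other lists it names up to 6 called genes each, with Nfe2l1, Pomp and Psmf1. Other settings were another pseudocount and filters, 4 scalings, fits with 2 groups, a replicate block, the trend removal, robust moderation, sample weights and left-out libraries. Medians and sums over genes were not tested.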

Additional observations from a re-analysis of the deposited data

Results flagged for a closer look

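In each group the highest and the lowest library of every proteasome gene were set against the nearest other library, and the gap was divided by the group's range (Dixon's 95% critical value). Of 132 gene and group combinations 12 held a library that stood apart, where chance gives about 1 in 20, or 6.6. Mod replicate 5 accounted for 4 of them and 6-OHG replicate 2 for 3.

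6-OHG replicate 2 was the highest library of its group for 30 of the 44 genes and for 9 of the 14 genes of the core rings, and for 3 of these 9 it stood apart. Psma2 was at 21.89 FPKM there, with the nearest other 6-OHG library at 16.8 FPKM. Psma7 was at 22.55 FPKM (nearest 20.17 FPKM) and Psmb6 at 25.57 FPKM (nearest 22.0 FPKM), and both were called lower in 6-OHG than in Mod with this library included. In 6-OHG replicate 3 the lid gene Psmd13 was lowest, at 17.68 FPKM (nearest 18.75 FPKM).

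Mod replicate 5 was highest for the ATPase gene Psmc6, at 28.63 FPKM (nearest 23.7 FPKM), and for the lid gene Psmd12, at 25.81 FPKM (nearest 23.45 FPKM). It was lowest for the lid genes Psmd3, at 18.16 FPKM (nearest 21.1 FPKM), and Psmd7, at 27.15 FPKM (nearest 31.1 FPKM). Psmb2 was lowest in Mod replicate 1, at 32.84 FPKM (nearest 34.11 FPKM), and Psmd10 in Mod replicate 2, at 5.773 FPKM (nearest 7.23 FPKM).

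Con replicate 3 was lowest for Psma7, at 19.65 FPKM (nearest 21.54 FPKM), and for the ATPase gene Psmc4, at 26.06 FPKM (nearest 28.98 FPKM).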

How the results depend on the processing

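Proteasome genes higher and lower are given in pairs, for Mod against Con (7 and 1 as reported), 6-OHG against Mod (1 and 10) and 6-OHG against Con (2 and 4). Without a filter they were 4 and 0, 1 and 5, and 2 and 3, where 4.98% and 3.34%, 1.95% and 2.02%, and 6.58% and 5.17% of all genes were called. With a filter at 5 FPKM 1 was higher in 6-OHG than in Con (2.44%, against 16.3% of all genes). At equal FPKM sums they were 0 and 1, 2 and 2, and 2 and 4, with medians of 0.0395 for Mod against Con and -0.0370 for 6-OHG against Mod. Of all genes 7.87% and 11.5%, 9.96% and 2.86%, and 15.2% and 10.7% were then called. At equal sums without mitochondrially encoded genes they were 4 and 1, 4 and 5, and 2 and 4, with a median of -0.0559 in 6-OHG against Mod. There 11.8% and 11.5%, 12.9% and 4.75%, and 20.3% and 11.3% of all genes were called. Median-of-ratios scaling gave 3 higher in 6-OHG against Mod (6.82%, against 8.26% of all genes) and 9 lower in 6-OHG against Con (20.5%, against 15.5%). Quantile normalization gave 4 higher in 6-OHG against Mod (9.09%, against 9.4% of all genes). In 6-OHG against Con it gave 5 higher (11.4%, against 16.9%), with a median of 0.0414. With only the compared groups in the fit, 2 were lower in Mod than in Con (4.55%, against 9.99% of all genes). In that setting 1 was higher in 6-OHG than in Con (2.27%, against 12.4%). With the length and GC trend removed they were 6 and 1, 1 and 4, and 2 and 4, with a median of -0.0600 in 6-OHG against Mod. Of all genes 13.7% and 11.4%, 3.53% and 3.48%, and 15.2% and 13.8% were called after that removal. Sample weights gave 13 higher in Mod against Con (29.5%, against 18.4% of all genes) and 15 lower in 6-OHG against Mod (34.1%, against 11.6%). Without Con replicate 4 and 6-OHG replicate 2 they were 12 and 1, 1 and 17, and 1 and 6. The shares of all genes were then 16.5% and 13%, 8.87% and 12.1%, and 14.5% and 14.7%. With each library left out in turn, 3 to 9 were higher and 0 to 1 lower in Mod against Con, 0 to 2 and 5 to 15 in 6-OHG against Mod, and 1 to 2 and 3 to 6 in 6-OHG against Con, and the medians ran from 0.08 to 0.12, from -0.17 to -0.11 and from -0.07 to 0.02. In those fits the shares of all genes were 10.2% to 15.2% and 6.72% to 11.1% in Mod against Con. They were 4.31% to 7.74% and 5.44% to 9.51% in 6-OHG against Mod, and 13.2% to 16.2% and 10.9% to 15.3% in 6-OHG against Con. The cause of these differences was not tested, and some settings use fewer genes or libraries.

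Deviations from the group means in libraries with the same replicate number had r = -0.48 to 0.35 across genes. Such correlations cannot decide whether the numbers pair the samples. The highest r between groups was that of Con replicate 4 and 6-OHG replicate 2 (r = 0.651), which carry different numbers. With the replicate block, 0 and 0, 0 and 1, and 2 and 3 genes were higher and lower, where 8.97% and 5.70%, 2.67% and 3.42%, and 12.9% and 10.9% of all genes were called. With the block and the trend removal they were 2 and 0, 0 and 0, and 1 and 4, with a median of -0.0663 in 6-OHG against Mod. Of all genes 8.64% and 6.66%, 0.302% and 0.158%, and 11.7% and 10.2% were called with both. Of 25 calls of single genes, 3 held in every setting and 11 in every fit with 1 library left out, and no reported call changed sign. FPKM values carry no read totals, so limits from depth could not be given.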
